A study of Mus musculus with 11 samples.

Results

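The 43 genes described here belong to the integrated stress response and to the set of genes that its transcription factor ATF4 switches on. A gene counted as a member when its symbol in the deposited files equalled a listed symbol. All 43 symbols were found, each a single time, among 23238 distinct gene symbols. The members fall into 6 branches by what their products do. There are 8 transcription factors (Atf4, Atf5, Atf3, Ddit3, Cebpb, Cebpg, Nupr1 and Jdp2) and 7 enzymes of serine synthesis and mitochondrial folate metabolism (Phgdh, Psat1, Psph, Shmt2, Mthfd2, Mthfd1l and Aldh1l2). A further 6 are other enzymes of amino acid and carbon metabolism (Asns, Aldh18a1, Pycr1, Got1, Gpt2 and Pck2), and 9 are amino acid transporters (Slc3a2, Slc7a11, Slc7a5, Slc7a1, Slc7a3, Slc6a9, Slc1a4, Slc1a5 and Slc38a2). The stress effectors number 8 (Ddit4, Sesn2, Trib3, Chac1, Vldlr, Stc2, Fgf21 and Gdf15), and 5 act on translation itself (Eif2ak4, Eif2s1, Ppp1r15a, Eif4ebp1 and Xpot).

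RNA had been sequenced from cells labelled as mouse cavernous endothelial, taken from the corpus cavernosum of the penis and grown in M199 medium with fetal bovine serum, heparin and antibiotics. Treatment lasted 5 days in each of the 3 groups. There were 3 libraries from normal glucose and 4 from high glucose. A further 4 came from cells given Hsp70, a heat shock chaperone protein, on top of high glucose. The labels give no glucose concentration, no form or dose of Hsp70, and no strain, age or number of animals. Nothing in them says that replicates were separate cultures, so the p-values reflect only how far these libraries differ among themselves, which may be technical. The names of the deposited files also place the libraries in numbered sets. Set 3 holds normal glucose replicate 1, high glucose replicate 2 and Hsp70 replicate 2. Set 4 holds replicates 2, 3 and 3 of those groups, set 5 holds replicates 3, 4 and 4, and set 2 holds replicate 1 of high glucose and of Hsp70, with no normal glucose library.

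In the integrated stress response, kinases that sense amino acid shortage, unfolded protein, viral RNA or lack of heme phosphorylate the alpha subunit of the initiation factor eIF2. General protein synthesis then falls, while the messenger RNA of ATF4 is translated more. ATF4 pairs with C/EBP family proteins and turns on genes for amino acid uptake and synthesis, for the supply of one-carbon units, and for factors that either restore translation or promote cell death. Because ATF4 is controlled mostly at translation, its own messenger RNA is a partial readout of its activity.

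Unless a count is named, a level is log2(normalized count + 1) and a difference is taken between such levels. Sums of normalized counts ran from 24.8 M to 27.8 M over the libraries. Members' levels ranged widely, and per kilobase of merged exon the median over the 11 libraries ran from 0.036 normalized counts for Fgf21 and 1.49 for Slc7a3 to 1480 for Cebpb and 1761 for Nupr1. All 43 members were among the 18248 genes that reached a normalized count of 1 in at least 3 libraries. Fgf21 reached it in exactly 3 libraries, all of the Hsp70 group, so it passed the filter through the group in which it was high.

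Several libraries stood apart on genes other than the members. Set 3 held the highest summed macrophage, endothelial and fibroblast markers. The 12 macrophage markers summed to 4848 to 5805 normalized counts there and to 559 to 883 in the other 8 libraries. The 14 endothelial markers summed to 3917 to 4309 in set 3 and to 2601 to 3369 elsewhere, and the 10 fibroblast markers to 340291 to 415932 and to 167314 to 270670. The endothelial surface protein gene Pecam1 stood at 8.86 to 9.07 in set 3 and at 2.68 to 4.51 elsewhere. Outside set 3 the endothelial genes Cldn5 and Robo4 reached no more than 0.24 and 1.70, while Cdh5, the endothelial cadherin, stood at 5.68 to 8.26, against 9.01 to 9.52 in set 3. Levels of Dcn, a matrix gene of fibroblasts, were 17.08 to 17.63 in set 3 and 15.17 to 16.02 elsewhere. In bulk RNA, fewer cells of a type and less RNA per cell cannot be told apart. Hsp70 replicate 3 held the highest value of the 11 libraries for 17.4% of the genes tested and the lowest for 17.6%, the largest shares of any library. It was highest for 1 member and lowest for 5.

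Hsp70 replicate 1 stood apart on the members themselves. It held the highest value of the 11 libraries for 31 of the 43 members, against 13.3% of all genes tested, and for 14 members it lay at least 1 log2 unit above every other library, against 0.296% of all genes tested. Pck2, at 1.06, was just inside that limit, and Atf4, at 0.996, and Atf5, at 0.92, were just outside it. The library held the lowest value for 0 members. No other library was highest of the 11 for more than 3 members, which follows in part from the 31 held by Hsp70 replicate 1. Among the other 10 libraries, normal glucose replicate 3 was highest for 17 members, a count not made over all genes. The members were proposed with the values of Hsp70 replicate 1 in view, so these counts describe the libraries and support nothing further. Taking each member's deviation from its own median over the 11 libraries, the median deviation over the 43 members was 0.97 in Hsp70 replicate 1 and lay between -0.25 and 0.23 in the other 10.

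**Figure D1:**
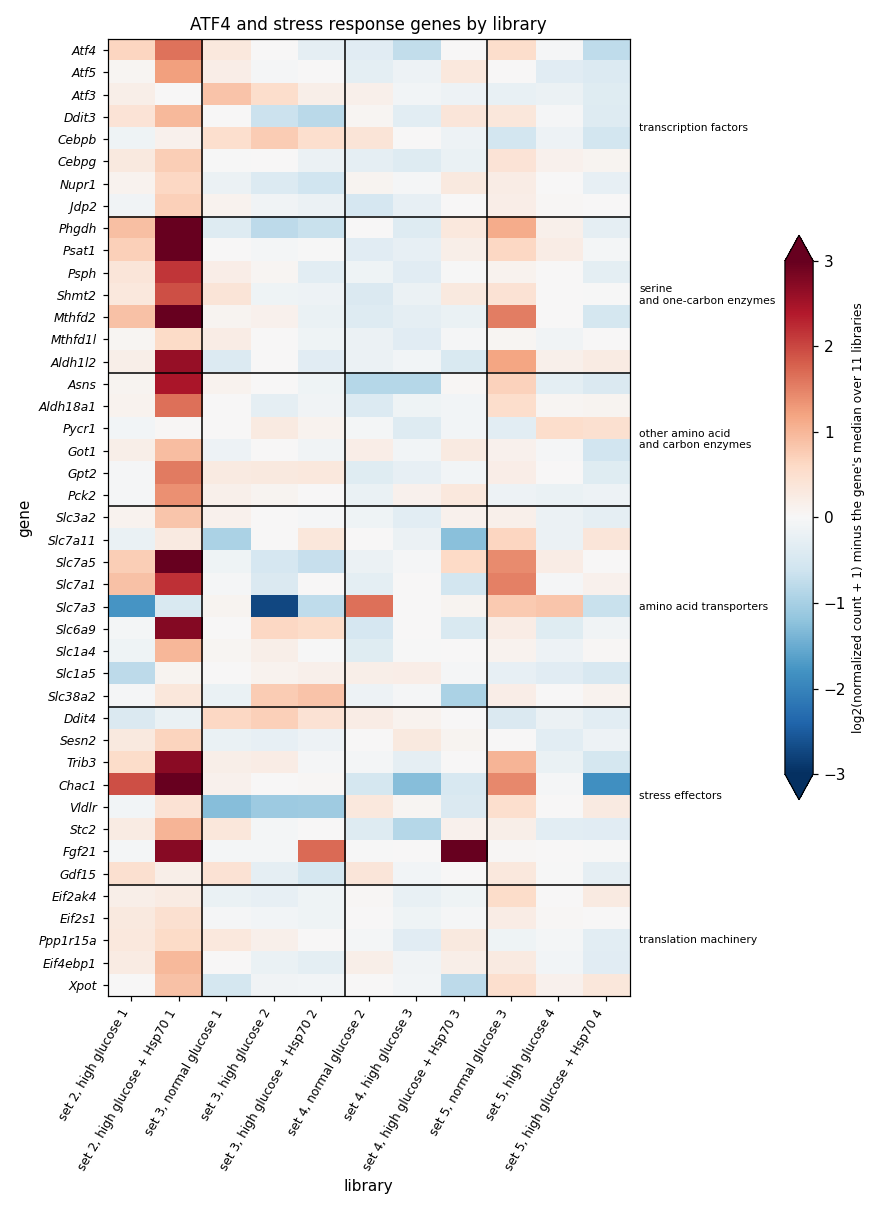
Each row is 1 of the 43 genes and each column 1 of the 11 libraries, ordered by file set; colour gives log2(normalized count + 1) minus the gene's median over the 11 libraries, clipped at 3 units either way. The column of Hsp70 replicate 1 (set 2) is the darkest red for 31 genes. Normal glucose replicate 3 (set 5) is the highest of the other 10 libraries for genes such as Phgdh, Mthfd2, Slc7a5, Slc7a1 and Trib3.

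The branches differed in how far they stood out in that library. The median deviation was 2.62 for the serine and folate enzymes, 1.47 for the other metabolic enzymes, 0.84 for the transporters, 0.83 for the stress effectors, 0.72 for the transcription factors and 0.57 for the translation genes. All 7 serine and folate enzymes were higher there than in any other library, 6 of them by at least 1 unit. The same held for 5 of 6 other enzymes (4 by at least 1 unit), 5 of 9 transporters (2), 4 of 8 stress effectors (2), 6 of 8 transcription factors (0) and 4 of 5 translation genes (0). By branch medians the enzymes thus stood out most, although single genes of other branches, such as the transporters Slc6a9 and Slc7a5, exceeded several enzymes. Normal glucose replicate 3 had the second largest median deviation in the serine and folate branch, at 0.62, followed by high glucose replicate 1 at 0.36.

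**Figure D2:**
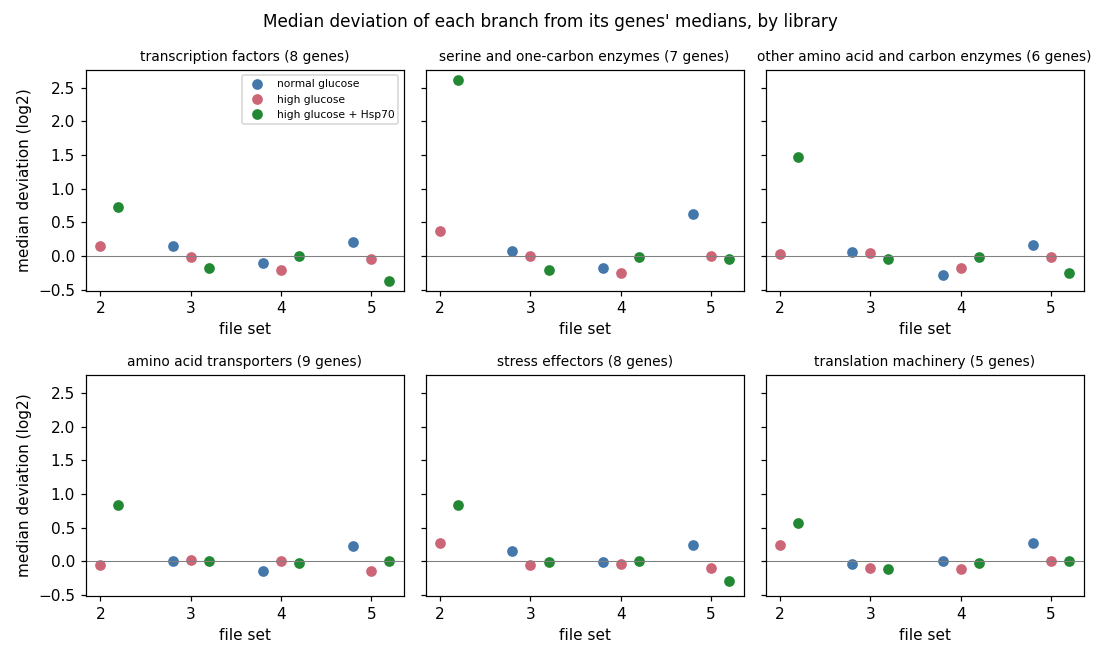
Points give, for each library, the median over a branch's genes of the deviation from each gene's own median, in log2 units, with libraries placed by file set and coloured by group. In every panel the Hsp70 library of set 2 is the highest point, at 2.62 for the serine and folate enzymes and 0.57 for the translation genes, while the Hsp70 libraries of sets 3, 4 and 5 lie between -0.37 and 0.00.

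Since many members stood high together in that library, the windows before their start sites were searched for the C/EBP-ATF response element, the composite site that ATF4 and C/EBP proteins share, written TGATGNAA and read on both strands. RefSeq promoter windows (GRCm38.p6, 250 bases before to 50 after a start site) were matched by symbol for 38 members; Aldh1l2, Slc7a5, Slc7a3, Slc1a5 and Eif4ebp1 had none. The letters occurred in windows of 13 of the 38 members (34.2%), against 3.15% of 13448 tested genes with a window and 3.97% of all 32851 windows. Of the 48 windows of members, 27.1% held them. The members were listed as genes of the ATF4 response, so these shares describe the list and do not bear on the library. The 13 members are shown with 10 bases on either side, each read 5′ to 3′ on the strand that shows TGATGNAA, with those letters in capitals.
Asns (chr6:7693215-7693242, minus strand): cccagccacaTGATGAAActtcccgcac
Chac1 (chr2:119351039-119351066, minus strand): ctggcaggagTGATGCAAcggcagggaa
Trib3 (chr2:152344029-152344056, plus strand): cccgcccggcTGATGTAAacctgagcta
Pck2 (chr14:55540153-55540180, minus strand): tgtaagatacTGATGTAActttgaaggc
Atf3 (chr1:191183426-191183453, plus strand): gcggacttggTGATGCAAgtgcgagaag
Nupr1 (chr7:126625563-126625590, plus strand): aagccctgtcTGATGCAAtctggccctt
Jdp2 (chr12:85599373-85599400, plus strand): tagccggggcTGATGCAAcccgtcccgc
Got1 (chr19:43524690-43524717, plus strand): gaggcttgtaTGATGCAAccaatgcaat
Pycr1 (chr11:120643834-120643861, minus strand): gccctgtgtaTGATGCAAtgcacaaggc
Slc1a4 (chr11:20332700-20332727, plus strand): aggctggagaTGATGCAAcgcaggaggc
Slc7a11, first site (chr3:50443662-50443689, minus strand): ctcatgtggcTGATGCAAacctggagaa
Slc7a11, second site (chr3:50443643-50443670, plus strand): ggctgcatgaTGATGCAAattctccagg
Vldlr (chr19:27216810-27216837, minus strand): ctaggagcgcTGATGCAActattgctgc
Fgf21 (chr7:45615612-45615639, plus strand): cctggacggaTGATGCAAtgggggggtc
The letter left free in the search was A in Asns, T in Trib3 and Pck2, and C in the others. The letters were in 4 of the 12 members with a window that lay at least 1 unit above all other libraries (Asns, Chac1, Trib3 and Pck2). That is 33.3%, against 34.6% (9 of 26) of the other members.

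The windows of 3 genes that stood high in that library are shown whole, because they differ in holding the element. Asns has the letters beginning 23 bases before its start site and Chac1 has them beginning 193 bases before, whereas the window of Phgdh, the gene with the second largest excess, does not hold these letters. Each is the 250 bases before the start site on the gene's own strand, with the element in capitals; in Chac1 the capitals read as its reverse complement.
Asns (chr6:7693210-7693459, minus strand): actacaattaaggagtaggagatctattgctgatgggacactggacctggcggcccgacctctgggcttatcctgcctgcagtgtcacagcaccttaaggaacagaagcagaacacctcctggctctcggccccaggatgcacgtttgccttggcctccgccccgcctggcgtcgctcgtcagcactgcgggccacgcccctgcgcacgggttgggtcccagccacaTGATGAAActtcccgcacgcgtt
Chac1 (chr2:119350992-119351241, plus strand): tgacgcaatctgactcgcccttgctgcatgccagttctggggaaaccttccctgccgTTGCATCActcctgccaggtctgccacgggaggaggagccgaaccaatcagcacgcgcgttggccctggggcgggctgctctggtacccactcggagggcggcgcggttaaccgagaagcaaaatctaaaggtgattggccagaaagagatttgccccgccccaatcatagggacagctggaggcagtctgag
Phgdh (chr3:98339970-98340219, minus strand): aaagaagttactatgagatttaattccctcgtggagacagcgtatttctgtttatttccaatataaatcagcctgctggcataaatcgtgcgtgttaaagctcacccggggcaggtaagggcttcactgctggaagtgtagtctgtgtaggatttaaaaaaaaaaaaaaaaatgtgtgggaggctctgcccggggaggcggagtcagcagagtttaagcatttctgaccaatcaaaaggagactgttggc
A match describes the window and is no evidence of binding, and a window without them says only that these letters are not in it.

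Atf4 (chr15:80255184-80257541, plus strand; gene positions are from GENCODE M21, build GRCm38) encodes the central activator of the response. It stood at 11.72, 11.05 and 11.93 in the normal glucose libraries, at 12.03, 11.41, 10.66 and 11.35 in high glucose, and at 13.03, 11.12, 11.39 and 10.63 with Hsp70, in replicate order. The highest and the lowest of the 11 values were thus both Hsp70 libraries. Hsp70 replicate 1 lay 0.996 above the next library, high glucose replicate 1 of the same set, which is a 1.99-fold higher normalized count. Within sets 2 to 5 the Hsp70 library differed from the high glucose library by 0.996, -0.29, 0.73 and -0.72. Over all libraries the fitted difference was 0.18 ± 0.46 (SE) with a 95% interval from -0.83 to 1.18 (limma, adjusted p = 1).

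Atf5, a relative of Atf4 that is also controlled at translation, stood at 12.27 in Hsp70 replicate 1 and at 10.63 to 11.35 in the other 10 libraries. Ddit3, the factor CHOP that links the response to cell death, stood at 11.85 there against 10.09 to 11.29. Cebpg and Jdp2, which pair with ATF4 or related factors, lay 0.31 and 0.52 above the next library, and the small stress protein gene Nupr1 lay 0.32 above it. Atf3 and Cebpb did not follow. Atf3, induced by many stresses, stood at 8.19 in Hsp70 replicate 1 and at 7.84 to 9.04 elsewhere. It was the only member that was lower with Hsp70 than with high glucose in all 4 sets (by -0.18, -0.34, -0.06 and -0.17), a pattern shown by 4.42% of all genes tested.

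The serine branch starts with Phgdh (chr3:98313170-98339990, minus strand), whose product commits a glycolytic intermediate to serine synthesis. It stood at 8.47, 8.86 and 9.97 in normal glucose, at 9.76, 8.08, 8.49 and 9.02 in high glucose, and at 12.18, 8.20, 9.18 and 8.59 with Hsp70. The Hsp70 library of set 2 lay 2.22 above all others, a 4.66-fold higher normalized count than the next library, normal glucose replicate 3. The other 3 Hsp70 libraries lay inside the range of the remaining libraries. Psat1 (chr19:15904678-15947337, minus strand), which carries out the next step, stood at 8.24, 7.89 and 8.86 in normal glucose, at 8.96, 8.17, 7.99 and 8.46 in high glucose, and at 11.48, 8.22, 8.42 and 8.19 with Hsp70. Its excess of 2.51, or 5.71-fold, was the largest of all 18248 genes tested. Psph, the last step of serine synthesis, stood at 9.93 in Hsp70 replicate 1 and at 7.46 to 8.16 in the other 10.

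The mitochondrial folate enzymes, which turn the carbon of serine into one-carbon units, formed the other side of this branch. Shmt2, the entry enzyme, stood at 11.49 in Hsp70 replicate 1, 1.49 above the next library. Mthfd2 (chr6:83305691-83325908, minus strand), which makes formyl folate, had 256, 184 and 705 normalized counts in normal glucose, 444, 263, 202 and 242 in high glucose, and 2769.9, 209.9, 208.8 and 167.5 with Hsp70. Its highest value and its lowest both came from Hsp70 libraries, those of sets 2 and 5. Aldh1l2, which oxidizes folate-bound carbon, lay 1.44 above the next library, with the other 10 at 7.62 to 9.26. Mthfd1l, which releases formate, had the smallest excess of the 7, at 10.39 against 9.47 to 10.03. The 6 measured cytosolic folate enzymes, a parallel pathway outside the mitochondrion, differed between the Hsp70 and high glucose libraries of set 2 by a median of -0.02, with 3 above 0, where the median over all genes tested was 0.00.

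**Figure D3:**
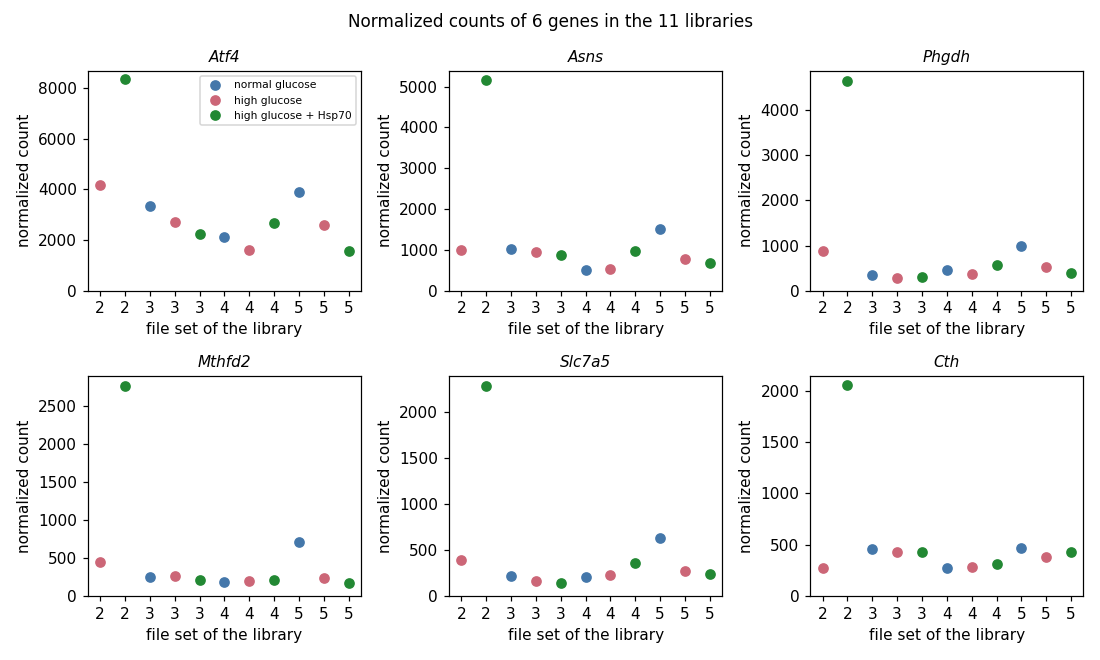
Normalized counts of 5 members and of Cth (y axis, linear, from 0) in each of the 11 libraries, placed by file set and coloured by group. In every panel the Hsp70 library of set 2 is the highest point, from 2055 for Cth to 8348 for Atf4, and normal glucose of set 5 is the next highest for Asns, Phgdh, Mthfd2, Slc7a5 and Cth.

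Among the other enzymes, Asns (chr6:7675169-7693254, minus strand) makes asparagine and is a standard reporter of amino acid shortage. It stood at 9.98, 9.01 and 10.57 in normal glucose, at 9.97, 9.87, 9.03 and 9.58 in high glucose, and at 12.33, 9.75, 9.92 and 9.43 with Hsp70. Hsp70 replicate 1 was 1.77 above the next library, normal glucose replicate 3. Aldh18a1, which starts proline synthesis, stood at 10.94 against 8.88 to 9.81, while Pycr1, which ends it, stood at 5.13 and inside the range of the others, 4.69 to 5.61. Gpt2, the mitochondrial alanine transaminase, stood at 9.72 against 7.79 to 8.46, and Pck2, the mitochondrial PEP carboxykinase, at 10.25 against 8.67 to 9.19. Got1, the cytosolic aspartate transaminase, lay 0.66 above the next library.

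The transporters split into those that stood high with the enzymes and those that did not. Slc7a5 (chr8:121881150-121907694, minus strand), the light chain of the large neutral amino acid exchanger, stood at 7.75, 7.69 and 9.30 in normal glucose, at 8.61, 7.37, 7.84 and 8.11 in high glucose, and at 11.16, 7.19, 8.48 and 7.88 with Hsp70. Slc6a9, a glycine transporter, stood at 9.26 in Hsp70 replicate 1 and at 6.02 to 7.14 in the other 10, an excess of 2.13 or 4.40-fold. Slc7a1, a carrier of arginine and lysine, stood at 11.62, with normal glucose replicate 3 next at 10.95 and the other 9 at 8.87 to 10.31. Slc3a2, the heavy chain shared by several exchangers, and Slc1a4, a carrier of small neutral amino acids, lay 0.68 and 0.83 above the next library.

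Slc7a11, the cystine importer, behaved otherwise. It stood at 11.38, 12.34 and 12.99 in normal glucose, at 12.14, 12.35, 12.16 and 12.15 in high glucose, and at 12.62, 12.67, 11.07 and 12.70 with Hsp70, so Hsp70 replicate 1 lay within the spread. Slc38a2 and Slc1a5, carriers of glutamine and other neutral amino acids, also stood inside the range of the other libraries there. Within set 4 the Hsp70 library was lower than high glucose by -1.08 for Slc7a11 and by -0.93 for Slc38a2. Set 4 holds Hsp70 replicate 3, in which 13.9% of all genes tested were lower than in high glucose by at least 1 unit. Slc7a3, a carrier of basic amino acids, was scarce, at 0.00 to 4.38 in the 11 libraries, where a single normalized count is 1 unit.

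Of the stress effectors, Trib3 (chr2:152337422-152344032, minus strand) encodes a pseudokinase that holds back ATF4 and AKT signalling. It stood at 5.91, 5.67 and 6.75 in normal glucose, at 6.28, 5.97, 5.46 and 5.52 in high glucose, and at 8.43, 5.70, 5.73 and 5.21 with Hsp70. Chac1 (chr2:119351229-119354381, plus strand), which breaks down glutathione, stood at 6.75, 6.09 and 8.06 in normal glucose, at 8.54, 6.62, 5.35 and 6.59 in high glucose, and at 9.91, 6.66, 6.13 and 4.78 with Hsp70. Chac1 had the widest spread of the well detected members, with the 2 extremes both in Hsp70 libraries. Stc2, a secreted glycoprotein, and Sesn2, a sensor that restrains mTORC1, lay 0.67 and 0.37 above the next library. Ddit4, another mTORC1 inhibitor, and the lipoprotein receptor gene Vldlr lay inside the range of the others.

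The 2 secreted stress hormones of the list did not follow the enzymes. Gdf15 had 133, 127 and 122 normalized counts in normal glucose, 138, 81.5, 92.3 and 98.4 in high glucose, and 112, 68.2, 98.4 and 81.1 with Hsp70. The fitted difference from normal glucose was -0.52 ± 0.24 (SE), with an unadjusted p of 0.0477 and an adjusted p of 1 (limma). Fgf21 had 5.88, 2.38 and 8.02 normalized counts in Hsp70 replicates 1, 2 and 3 and no more than 0.06 in the other 8 libraries, Hsp70 replicate 4 among them. This rests on a few counts per library, so no fold is given.

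The translation genes stood out least in Hsp70 replicate 1. Eif4ebp1, whose product blocks cap-dependent initiation, stood at 11.13 against 9.83 to 10.44, and Xpot, which exports tRNA from the nucleus, at 11.69 against 10.01 to 11.31. Ppp1r15a encodes GADD34, which returns eIF2 to its active state, and stood at 11.12 against 10.20 to 10.87. Eif2s1, the alpha subunit of eIF2, stood at 11.73 against 11.13 to 11.54. Eif2ak4, the kinase GCN2 that senses uncharged tRNA, lay within the range of the others at 9.65. With Aldh18a1 it was 1 of 2 members that were higher with Hsp70 than with high glucose in all 4 sets, as were 3.89% of all genes tested.

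Compared within sets, Hsp70 and high glucose differed most in set 2. In set 4 most members were also above 0. In set 2, 41 of 43 members were above 0 and 19 were higher by at least 1 unit, against 4.01% of all genes tested, while 0 were lower by as much (5.76%). Fgf21, which passed the filter only through Hsp70 libraries, is in both counts. Without it 40 of 42 were above 0 and 18 were higher by at least 1 unit. In set 3 there were 2 members higher by at least 1 unit (Slc7a3 and Fgf21, against 4.58% of all genes) and 0 lower (3.42%). In set 4 there were 2 higher (Stc2 and Fgf21, 4.83%) and in set 5 there were 0 (6.40%). Lower by at least 1 unit were Slc7a11 in set 4 and Slc7a3 and Chac1 in set 5, where the shares of all genes were 13.9% and 5.78%. The median over the members was 0.85, -0.08, 0.19 and -0.09 in sets 2 to 5, and without Fgf21 it was 0.83, -0.08, 0.18 and -0.12. Over all genes tested the median was 0.00, 0.00, -0.04 and 0.02. Members above 0 numbered 17, 31 and 13 of 43 in sets 3, 4 and 5, and without Fgf21 16, 30 and 13 of 42. With 1 library of each group in a set, these differences have no test.

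**Figure D4:**
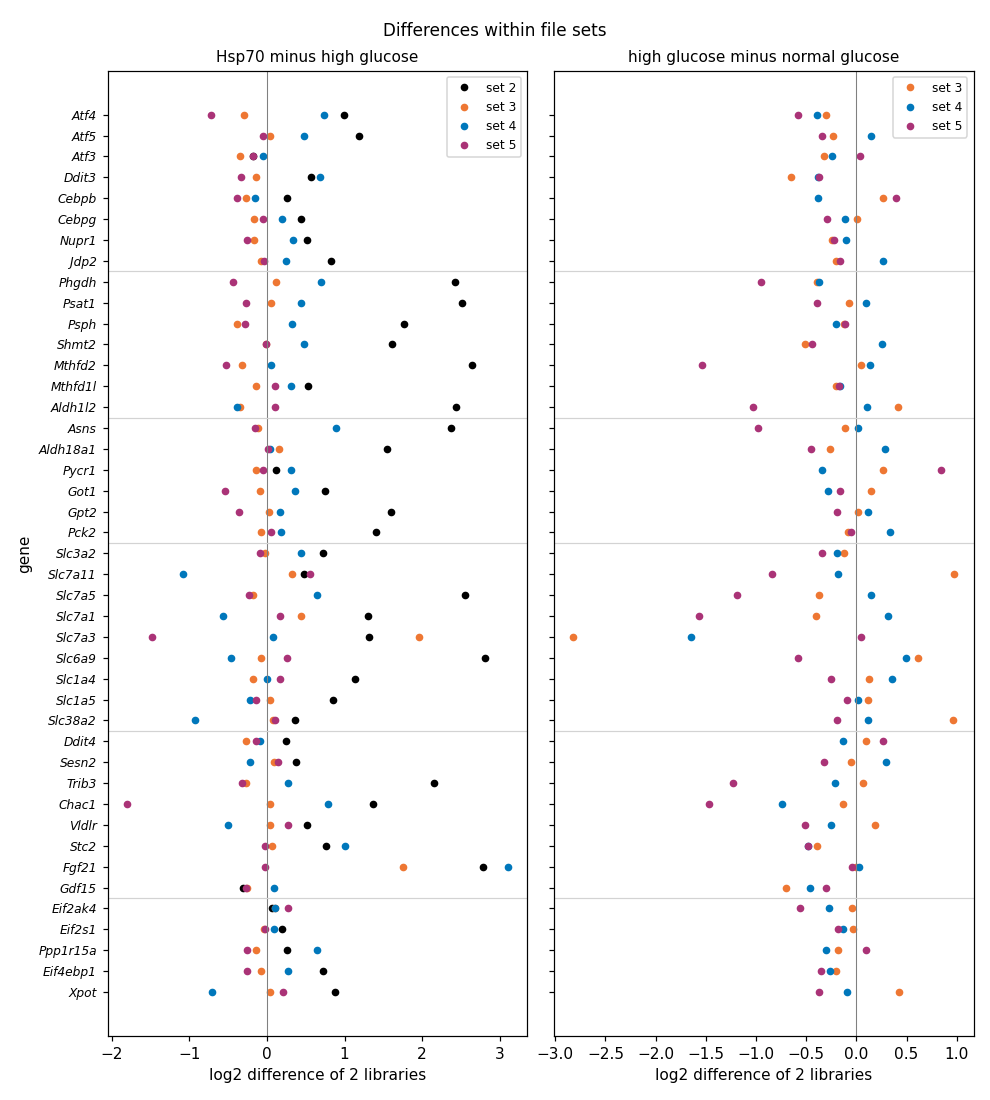
Points give the log2 difference between the 2 libraries of a file set for each of the 43 genes, on the left for Hsp70 minus high glucose (sets 2 to 5) and on the right for high glucose minus normal glucose (sets 3 to 5). On the left the black points of set 2 lie above 0 for 41 genes and those of set 4 for 31. The points of set 5 there lie below 0 for 30. On the right the points of set 5 lie below 0 for 37 genes. Slc7a3 and Fgf21 rest on few counts.

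Across all libraries, limma called 0 of 18248 genes (0.0%) and 0 members for Hsp70 against high glucose. At an unadjusted p under 0.05 there were 136 genes, of which 1 was a member, Fgf21, higher (0.378% of all genes were higher and 0.367% lower at that p). With the file set as a block these members were Stc2 and Fgf21, both higher (0.811%), and 0 were lower (0.860%). Since Fgf21 passed the filter only through Hsp70 libraries, its p-values cannot be read as a test. The fitted differences of the 43 members had a median of 0.20, with 38 above 0, where the median over all genes tested was 0.00. Without Fgf21 the median was 0.20, with 37 of 42 above 0. The 95% interval ran from -0.94 to 2.34 for Phgdh and from -0.49 to 1.98 for Asns, and both hold 0. The sign of these differences hung on 1 library. Without Hsp70 replicate 1 Fgf21 no longer passed the filter, and the median over the other 42 members was -0.09, with 14 above 0, and 23 members changed sign. Phgdh went from 0.70 ± 0.75 (SE) to -0.18 ± 0.44, Mthfd2 from 0.46 ± 0.78 to -0.50 ± 0.42, and Chac1 from 0.10 ± 0.98 to -0.92 ± 0.74. That fit kept high glucose replicate 1, the other library of set 2. With sets 3, 4 and 5 alone, which leaves out both libraries of set 2, the median was -0.01, with 20 of 42 above 0.

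**Figure D5:**
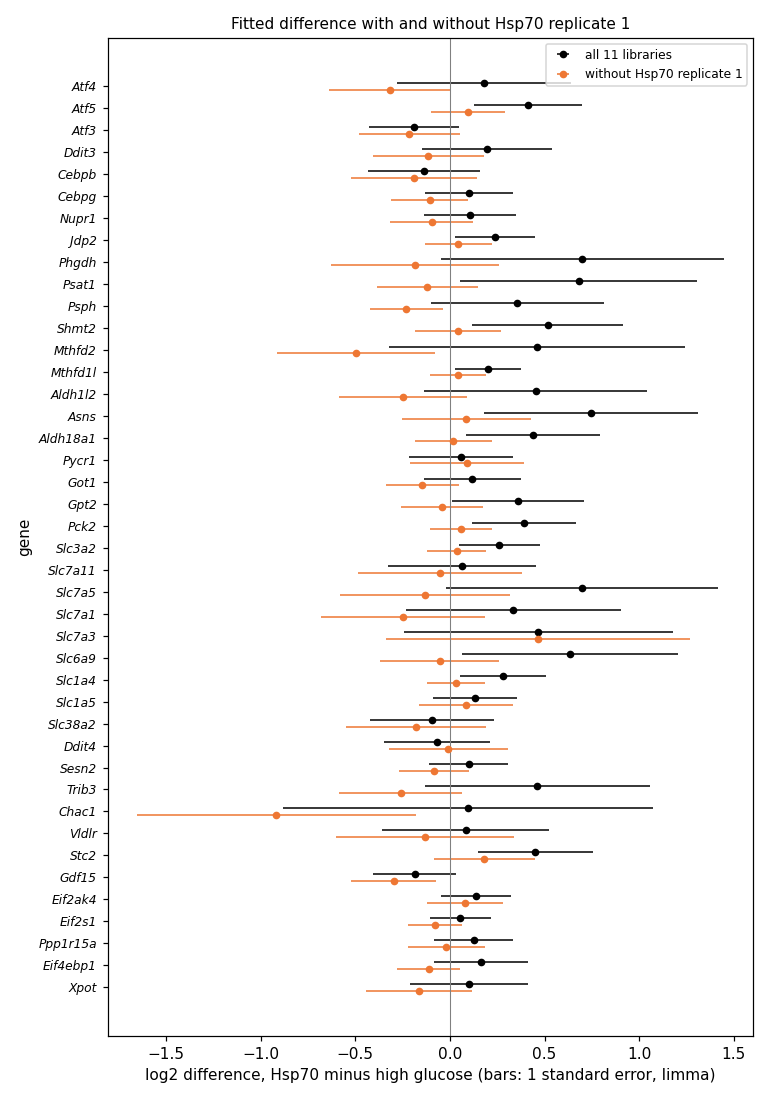
Fitted log2 differences, Hsp70 minus high glucose, of 42 members (Fgf21 is left out) from limma with all 11 libraries in black and without Hsp70 replicate 1 in orange; bars are 1 standard error. The orange points crowd around 0 with 14 of 42 above it, and the bars shorten for the serine and folate enzymes. The orange fit keeps high glucose replicate 1, the other library of set 2.

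High glucose stood slightly below normal glucose for most members in each of the 3 sets that hold both groups, and most so in set 5. Within sets 3, 4 and 5 the median difference was -0.09, -0.13 and -0.34, and 16, 18 and 6 of the 43 members were above 0. Higher by at least 1 unit were 0 members in sets 3, 4 and 5 (6.07%, 5.68% and 5.48% of all genes). Lower by as much was Slc7a3 in set 3 (4.64%) and in set 4 (4.82%). In set 5 the members lower by at least 1 unit were 6 (Mthfd2, Aldh1l2, Slc7a5, Slc7a1, Trib3 and Chac1), against 6.21% of all genes. The members below 0 in all 3 sets were 13, against 14.3% of all genes: Atf4, Ddit3, Nupr1, Phgdh, Psph, Mthfd1l, Slc3a2, Chac1, Stc2, Gdf15, Eif2ak4, Eif2s1 and Eif4ebp1. For Atf4 the differences were -0.31, -0.39 and -0.58. There were 0 members above 0 in all 3 sets, against 11.3% of all genes.

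Set 5 stood out through its normal glucose library. Normal glucose replicate 3 lay above both other libraries of set 5 for 36 of 43 members (34.7% of all genes tested), and by at least 0.5 for 9 (5.43%). Among these 9 were Phgdh, Mthfd2, Aldh1l2, Asns, Slc7a5, Trib3 and Chac1, which also lay at least 1 unit above all other libraries in Hsp70 replicate 1. Such an overlap was not counted over all genes, so these names only describe the libraries. Leaving Hsp70 replicate 1 aside, the median deviation over the 43 members was highest in normal glucose replicate 3, at 0.23, followed by high glucose replicate 1 at 0.17.

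For high against normal glucose limma called 0 genes and 0 members, with 185 genes and 1 member (Slc7a3, -1.76 ± 0.77 SE, unadjusted p = 0.0407) at an unadjusted p under 0.05. At that p, 0.416% of all genes were higher and 0.597% lower. The median over members was -0.12, with 8 of 43 above 0, against -0.01 over all genes. Without normal glucose replicate 3 it was 0.03, with 25 above 0. With the file set as a block in the fit the median was -0.26, with 4 above 0 and 0 called, and 5 members had an unadjusted p under 0.05, all lower (Ddit3, Slc7a3, Stc2, Gdf15 and Eif2ak4), where 1.97% of all genes were lower and 1.52% higher.

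For Hsp70 against normal glucose limma also called 0 genes and 0 members, with 178 genes at an unadjusted p under 0.05. The members among them were Fgf21, higher (0.400% of all genes), and Gdf15, lower (0.575%). Fgf21 passed the filter only through Hsp70 libraries, so its p-values against normal glucose cannot be read as a test. The median over members was 0.11 with 30 of 43 above 0, and without Fgf21 it was 0.10 with 29 of 42 above 0. Over all members tested the median was -0.14 with 7 of 42 above 0 without Hsp70 replicate 1. It was 0.29 without normal glucose replicate 3, and -0.04 with 15 above 0 when the file set was a block. In that fit Fgf21 was higher at an unadjusted p under 0.05 (1.34% of all genes) and Atf3 and Gdf15 were lower (1.88%), with an adjusted p of 1 for each (limma). Within sets 3, 4 and 5 the median was -0.16, 0.08 and -0.40, and 9 members in set 5 were lower by at least 1 unit, against 5.77% of all genes, with 0 higher (6.09%). In set 3, Slc7a11, Slc38a2 and Fgf21 were higher by at least 1 unit (8.75%) and 0 members lower (4.38%). In set 4, Fgf21 was higher (4.82%), and Slc7a11 and Slc7a3 were lower (13.1%). Atf3, Slc7a3, Gdf15 and Eif2s1 were below 0 in all 3 sets, as were 9.92% of all genes. This comparison shares its libraries with the other 2.

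Some members, like many other genes, differed among the file sets. With the group means kept in the fit, limma called 2165 genes among the 4 sets (11.9%), and 8 of the 43 members were among them: Atf3, Ddit3, Cebpb, Cebpg, Phgdh, Ddit4, Chac1 and Vldlr. Vldlr stood at 9.90, 10.08 and 10.12 in set 3 and at 10.73 to 11.68 elsewhere (adjusted p = 0.00746, limma), and Ddit4 stood at 8.96 to 9.23 in set 3 and at 8.09 to 8.75 elsewhere (adjusted p = 0.0128, limma). Without Hsp70 replicate 1 the called members were 4 of 42 (Cebpb, Slc1a5, Ddit4 and Vldlr; 5.62% of all genes), and Phgdh had an adjusted p of 0.115 (limma). With single libraries outside set 2 left out, the fewest members called were 1, without high glucose replicate 2, where 614 genes were called. The most were 16, without Hsp70 replicate 3, where 5200 genes were called. Leaving out either library of set 2 left the other alone in that set. Those fits cannot tell a difference of set 2 from that library's own levels. Macrophage, endothelial and fibroblast markers were also highest in set 3, and their part in the differences of Vldlr, Ddit4, Atf3 and Cebpb was not tested.

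Against the other libraries outside set 3, Hsp70 replicate 1 was inside the range for endothelial, smooth muscle and Schwann cell markers. It was above that range for macrophage markers and below it for fibroblast markers. Outside set 3, its endothelial markers summed to 2961 normalized counts against 2601 to 3369, its smooth muscle markers to 4858 against 3285 to 5701 and its Schwann cell markers to 1050 against 596 to 2263. Its 12 macrophage markers summed to 883 against 559 to 733, with 4 of the 12 below 1 normalized count. Its fibroblast markers summed to 167314 against 173500 to 270670, the lowest of the 11 libraries. Cdh5 stood at 8.26 in it, the highest of the 8 libraries outside set 3. The ribosomal RNA gene Rn45s took 5.71% of its normalized counts, inside the range of the others. The part of these differences in the members' levels was not tested.

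Genes around the members gave a mixed picture in set 2. Cth, which makes cysteine from cystathionine and is a reported ATF4 target, had 460.4, 275 and 469 normalized counts in normal glucose, 273, 431, 278 and 380.4 in high glucose, and 2055, 428, 313 and 429.6 with Hsp70. Its excess of 2.13 over the next library, 4.38-fold, was close to that of Slc6a9. Bcat1, which transaminates branched-chain amino acids, stood at 9.41 in Hsp70 replicate 1 and at 5.80 to 7.37 elsewhere. The peptide hormone gene Adm2 stood at 3.96 in Hsp70 replicate 1, inside the range of the others, 0.00 to 4.79. The oxidase gene Ero1l differed between Hsp70 and high glucose in set 2 by 0.01. The 9 reported targets outside the member list had a median of 0.46 in set 2, with 7 above 0, 3 higher by at least 1 unit (4.01% of all genes) and 1 lower by as much (5.76%).

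The 20 cytosolic tRNA synthetases, which charge tRNA with amino acids, differed in set 2 by a median of 0.74, with 17 above 0 and 1 higher by at least 1 unit, a share near the 4.01% of all genes. In sets 3, 4 and 5 their median was -0.04, 0.38 and -0.03, with 8, 17 and 7 above 0. Mars, the methionine synthetase, stood at 11.46 in Hsp70 replicate 1 and at 10.46 to 10.97 elsewhere. Yars, Farsb and Vars differed in set 2 by 0.83, 0.76 and -0.04. The 15 upstream genes (the other eIF2 kinases, eIF2 and eIF2B subunits and their regulators) had a median of -0.01 there, with 7 above 0. Of those named, Eif2b3 differed by 0.93, Oma1 by 0.25, Eif2b2 by 0.24 and Impact by -0.13.

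Chaperones and related genes of the endoplasmic reticulum answer to the ATF6 and XBP1 arms of the unfolded protein response. In set 2 they went the other way from the members. Their median was -0.21, with 14 of 16 below 0, and Sdf2l1, Xbp1 and Dnajc3 differed by -0.44, -0.27 and -0.22. Derl3 differed by -0.97 on a few counts, as it was at 0.00 in Hsp70 replicate 1. In sets 3, 4 and 5 the median of this list was -0.12, 0.37 and -0.11, with 13, 5 and 13 of 16 below 0. Most of these genes were thus below 0 in sets 3 and 5 as well. The 6 mitochondrial chaperones and proteases had a median of 0.30 in set 2, with 4 above 0, and of -0.10, 0.45 and -0.10 in sets 3, 4 and 5. In set 2, Hspa9 differed by 0.78, Lonp1 by 0.44, Hspe1 by 0.31 and Hspd1 by 0.30. Of the cytosolic folate enzymes, Shmt1 differed by 0.64, Tyms by -0.29 and Aldh1l1 by -0.74. Over all libraries, no gene of these 6 lists had an adjusted p under 0.05, or an unadjusted one, for Hsp70 against high glucose (limma).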

How the data were processed

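Each of the 11 libraries came with 1 deposited table of 23282 genes holding log2 values, which the numbers show to be log2(normalized count + 1). TopHat, edgeR and the mouse build mm10 appear in the submitters' processing notes, with no versions, and a stranded SMARTer kit in the labels' protocols. The sources used here do not give the normalization, the annotation or whether counting used strand. By GENCODE M21 a gene on the opposite strand overlaps 14 members (Atf5 and Psph among them) and another gene on the same strand 7, so reads may be shared.

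Of a repeated symbol, the row with the highest mean was kept. The authors' deposited log2 values went into limma 3.58.1 (R 4.3.3), fitted over all 11 libraries with 3 group means, trended prior and robust variances. A gene entered when 3 or more libraries reached a normalized count of 1, and Benjamini-Hochberg adjustment ran over all entered genes, with 0.05 as threshold. The fit was tested on simulated data. The median standard error over genes was 0.27 for Hsp70 against high glucose and 0.29 otherwise. Plots used matplotlib 3.10.9 under Python 3.11.15.

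The members, branches, pathway lists and promoter search were chosen with earlier results of these data known. Every member may be named. From each pathway list the rule names the 4 genes with the smallest unadjusted p for Hsp70 against high glucose, and Cth in every case. For the cytosolic folate list, 1 gene the rule names is not reported here. Dele1 of the upstream list was not analysed here. Alternatives were blocks (file set, title number), subsets of sets, filters, pseudocount, scalings, sample weights, variance settings and each library left out. With group means taken out, libraries sharing a file set correlated at 0.0219 to 0.691, all above 0. High glucose and Hsp70 libraries that share a title number also share a file set. Pairs sharing only a title number, each with a normal glucose library, correlated at -0.357 to 0.137. The file set thus paired libraries better than the title number, though the Hsp70 library of set 4 correlated weakly with its partners (0.0219 and 0.0586).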

Additional observations from a re-analysis of the deposited data

Results flagged for a closer look

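In the groups of 4 libraries, a library was listed here when the gap between it and its nearest neighbour took up most of the group's range (Dixon's 95% limit). Of 86 pairs of gene and group, 11 met this, where chance gives about 1 in 20, and 7 of the 11 fell in Hsp70 replicate 1. The members were proposed with that library's values in view, so its 7 entries are a description and cannot be read against the chance rate. In that library Psat1 stood at 11.48 (the next Hsp70 library at 8.42), Mthfd2 at 11.44 (7.72), Psph at 9.93 (7.78), Asns at 12.33 (9.92), Aldh18a1 at 10.94 (9.38), Slc1a4 at 9.97 (8.98) and Trib3 at 8.43 (5.73). In Hsp70 replicate 3 the cystine importer gene Slc7a11 stood low, at 11.07, with the next Hsp70 library at 12.62. In high glucose replicate 2, a library of set 3, Slc7a11 stood at 12.35 (the next high glucose library at 12.16), Slc38a2 at 12.99 (12.23) and Vldlr at 10.08 (11.10). Values of different genes in 1 library are not independent of each other.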

How the results depend on the processing

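Under 25 alternatives, 0 of 3200 values of members in the 3 group comparisons passed an adjusted p of 0.05, and the smallest adjusted p was 0.78 (Slc7a11, Hsp70 minus normal glucose, sets 2 and 3 alone, limma). Genes called stayed at 0 in each group comparison except without Hsp70 replicate 2, where 3 genes, no members among them, were called for Hsp70 against high glucose and 3 for Hsp70 against normal glucose, a range of 0 to 3 over the libraries left out. With a replicate block by file set the median over members was -0.26, 0.20 and -0.04 for high minus normal glucose, Hsp70 minus high glucose and Hsp70 minus normal glucose, and with a block by title number -0.05, 0.20 and 0.20; both called 0 genes and changed no call. Libraries left out moved these 3 medians over -0.20 to 0.03, -0.09 to 0.36 and -0.14 to 0.29. Leaving out Hsp70 replicate 1 and normal glucose replicate 3 together, an alternative chosen after seeing the data, gave 0.035, -0.09 and 0.00. Sample weights gave 0.00, 0.20 and 0.26, sets 3 to 5 alone -0.16, -0.01 and -0.14, and sets 4 and 5 alone -0.18, 0.01 and -0.17. Sets 2 and 3 alone, with only normal glucose replicate 1 in that group, gave 0.02, 0.40 and 0.45. The main fit gave -0.12, 0.20 and 0.11. Against it, sets 2 and 3 alone turned the sign of the first median. Sets 3 to 5 alone turned the second and the third. Sets 4 and 5 alone and the file set block turned the third. Some fits with libraries left out also turned signs. Quantile normalization and median centring kept the sign of every median. Among file sets, the count of called genes was 1396 and that of members 2 without trended prior and robust variances, and over the libraries left out they ranged from 614 to 5200 and from 1 to 18; the lowest counts came without high glucose replicate 2, the most genes without Hsp70 replicate 3 and the most members without high glucose replicate 1. Set 2 holds only high glucose replicate 1 and Hsp70 replicate 1, so leaving out either left the other alone in that set. The counts from those fits, the most members among them, cannot tell a difference of set 2 from that library's own levels. The cause of the other shifts was not tested. The precision is limited by 3 or 4 libraries a group and, for Fgf21 and Slc7a3, by a few counts per library.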

Other observations

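Among 13214 genes with a mean level of at least 5 in the other 10 libraries, 14 of the 20 with the largest excess in Hsp70 replicate 1 were members, and 8 of the first 10. The other 6, chosen after their values were seen, were Cth, Bcat1, the receptor gene Gprc5a (8.74 against 6.61 to 7.59), the reductase gene Cyb5r1 (11.01 against 9.36 to 9.89), the interleukin-33 receptor gene Il1rl1 (14.46 against 11.05 to 13.35) and the thrombomodulin gene Thbd (12.78 against 10.79 to 11.69).

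The genes lying farthest below every other library in Hsp70 replicate 1, also chosen after their values were seen, were led by Eln, the elastin of elastic fibres, at 5.42 against 7.05 to 7.98. The lactate transporter gene Slc16a3 stood at 6.95 against 8.36 to 9.78, the growth factor gene Igf1 at 9.90 against 10.96 to 13.34, and the globin gene Cygb at 8.21 against 9.23 to 10.06. With 1 library these values have no test.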
